A study of Homo sapiens with 4 samples.

Results

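The transcripts described here are 7 messenger RNAs of insulin and insulin-like growth factor (IGF) signalling: those of the receptors INSR and IGF1R, of the docking proteins IRS4, IRS1 and IRS2, and of the kinases AKT1 and AKT2. They were chosen by name, and every m6A site that the deposited lists assign to these gene names was taken, which gave 258 of the 218950 sites listed in any library and 7 of 15209 gene names. No subunit of phosphatidylinositol 3-kinase (PI3K) is among the 7, and PI3K genes are described only with the rest of the pathway. The modified base N6-methyladenosine (m6A) was mapped in HEK293T, a line of human embryonic kidney cells, with 2 libraries of messenger RNA from cells given ascorbic acid for 36 h and 2 libraries from control cells, which the labels call WT. All cells were seeded for 24 h before treatment, and the medium was changed every 6 h. Neither the dose of ascorbic acid nor a vehicle for control cells is stated in the labels. All 4 libraries come from 1 cell line, and nothing in the labels says whether libraries of a group came from separate cultures, so p-values measure only the spread between these libraries.

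GLORI, the assay used, deaminates unmethylated adenosine with glyoxal and nitrite; the sequencer then reports G at such positions and A where the base was methylated. The share of A among all A and G reads at a position, in percent, is its m6A level. No listed site had fewer than 15 reads (A and G together), fewer than 5 with A, or a level below 10.0%, so a site that dropped below these limits is missing from that list and is not counted as a fall. The 4 lists held 179 and 176 of these transcripts' sites after ascorbic acid, against 175 and 183 in control. Over all sites the A plus G reads summed to 25146378 and 26816350 in the ascorbic acid libraries, against 22592887 and 28562744 in the control libraries. Of 6 markers chosen for HEK293T cells, 4 had a site in all 4 lists, KRT8 was listed only after ascorbic acid and PAX2 in no list. Of 11 markers of other cell types, 0 were in all 4 lists and 1, COL1A1, was in any. A gene with no called site has no entry, so these lists do not show that a transcript is absent. The part of these markers in the results was not tested.

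Insulin and the IGFs bind receptor tyrosine kinases at the cell surface, which phosphorylate docking proteins of the IRS family. Phosphorylated IRS proteins recruit PI3K, whose lipid product brings AKT kinases to the membrane to be activated, and active AKT acts on glucose handling, protein synthesis and cell survival. IRS-4 was originally isolated from HEK293 cells. m6A is written by the METTL3 and METTL14 complex and removed by FTO and ALKBH5, which are iron-dependent dioxygenases, and ascorbic acid is known as an agent that keeps the iron of many such enzymes reduced. These statements are background, not results.

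m6A levels were lower after ascorbic acid in all 5 transcripts that could be tested, by a wide margin in AKT1 and by smaller margins in IRS4, INSR, IGF1R and AKT2. Of the 258 sites, 109 appeared in all 4 lists, each time with 20 or more A and G reads, and were tested. These were 15 in INSR, 41 in IGF1R, 38 in IRS4, 4 in AKT1 and 11 in AKT2. IRS1, with 4 sites listed anywhere, and IRS2, with 19, had no site that met these terms. Of the 109 sites, 47 fell, 0 rose and 62 did not pass the threshold, by the quasi-likelihood test of edgeR on A against G reads, at an adjusted p under 0.05 over all 78509 tested sites. The 47 are 43.1% of the 109, against 25.7% of all tested sites that fell and 0.219% that rose. At an unadjusted p under 0.05 by edgeR, 0 of the 109 sites were higher, where 0.571% of all tested sites were, and the count was also 0 by DESeq2 and by limma. Both ascorbic acid libraries lay below both controls at 71 of the 109 sites and above both at 0, where 55.4% of all tested sites lay below. The median change in mean level was -5.38 percentage points over the 109 sites and -4.89 over all tested sites.

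The count of falls depended on the tool and on which libraries were used, and depth differed between transcripts. In place of 47 it was 26 by DESeq2 and 21 by limma on the log odds. Over all 78509 tested sites the count was also lower, at 9991 by DESeq2 and 10187 by limma in place of 20141. The lowest of a site's 4 depths had a median of 111 reads in these transcripts and 86 over all tested sites. By transcript, 23 of 38 tested sites fell in IRS4 (60.5%), 5 of 15 in INSR (33.3%) and 9 of 41 in IGF1R (22.0%). In AKT1 it was 3 of 4 (75.0%) and in AKT2 7 of 11 (63.6%). The share in IGF1R lay below the 25.7% of all tested sites, and the other shares lay above it. The median lowest depth was 723 reads in IRS4, 49 in INSR, 61 in IGF1R, 308 in AKT1 and 798 in AKT2. Without ascorbic acid library 1, 2 or control library 2 the count of falls was 30, 31 and 31, with the lone library of a group assumed to vary like the other group. Of the 47, 17 passed under every other setting that tested them. Reads left unconverted by the chemistry differed between libraries, with a median over genes of 2.72% and 2.87% of A in the ascorbic acid libraries, against 2.51% and 3.88% in the controls. With each gene's share of the A plus G reads at a site subtracted from its A reads, 41 of the 47 sites still fell. This takes too much from sites of high level, where few reads are unmethylated.

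Sites of high level fell most often, both in these transcripts and over all sites. Among sites with a mean level of at least 75% over the 4 libraries, 12 of 18 fell (66.7%), against 48.8% of all tested sites in that class. Between 50 and 75% it was 11 of 22 (50.0%), against 38.1% of all tested sites. Between 25 and 50% it was 15 of 39 (38.5%), against 20.6% of all tested sites, and below 25% it was 9 of 30 (30.0%), against 10.5% of all tested sites. Depth was not matched in these shares. From the highest class to the lowest, the median lowest depth was 122.5, 86, 93 and 159.5 reads in these transcripts. Over all tested sites it was 74, 71, 71 and 124. IRS4 had 7 sites above 90% in control, and all 7 fell. Whether the higher shares hold at equal depth or without IRS4 was not tested.

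With reads added up per gene, the level fell past the threshold in INSR, IGF1R, IRS4, AKT1 and AKT2, by edgeR on the summed reads with adjustment over 10782 genes. In that test 56.7% of all genes fell and 0.297% rose, and the median change over all genes was -0.39 in log2 odds of A. A fall was thus what most genes showed. AKT1 lay near the end of the range, with a larger fall in log2 odds in 1.09% of genes. Where 1 read spans several sites it is counted once for each.

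**Figure D1:**
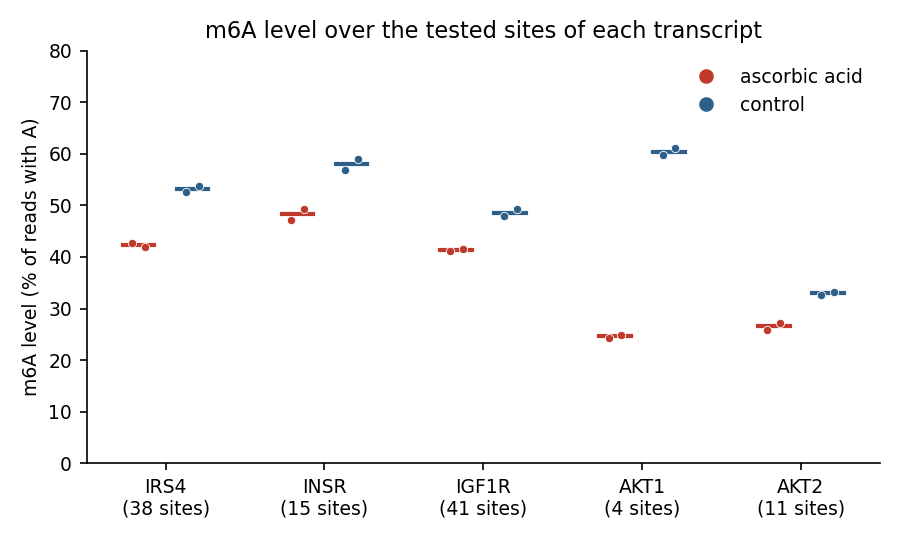
m6A level in percent (y axis) over the tested sites of each transcript (x axis), as a point per library with ascorbic acid on the left in red and control on the right in blue; bars are means of 2 libraries. In each transcript both ascorbic acid points lie below both control points, and AKT1 shows the widest gap, at 24.3% and 25.0% after ascorbic acid, against 59.7% and 61.1% in control.

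INSR, the insulin receptor, spans 182150 nt on the minus strand of chromosome 19 (7112265 to 7294414, GRCh38). Over its 15 tested sites the level was 47.2% and 49.3% in the ascorbic acid libraries, against 56.8% and 59.1% in the controls, from 942 and 962 reads after ascorbic acid, against 750 and 1007 in control. The groups did not overlap, and the log2 odds of A fell by 0.57 ± 0.11 (SE, edgeR adjusted p = 0.000227). All coordinates here are the authors' positions, distances are counted from the gene ends of the RefSeq gene table for the same build, and whether a site lies in an exon, an intron or a UTR was not analysed here.

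The largest change of any INSR site was at position 7267823, which lies 26591 nt from the annotated gene start. Its level was 37.0% and 23.1% after ascorbic acid, against 82.1% and 81.5% in control, from 26 to 28 reads per library. The 2 groups lay far apart there despite the low depth, with a change in log2 odds of -3.34 ± 0.57 (SE, edgeR adjusted p = 1.07e-05), and 0.197% of all tested sites had a larger fall in points. Position 7267607, in the same group of sites, had 22.7% and 18.3% after ascorbic acid, against 34.5% and 36.1% in control, from 58 to 71 reads. It passed narrowly (edgeR adjusted p = 0.0354) and missed the threshold without any 1 of the 4 libraries (adjusted p between 0.0772 and 0.237) and by DESeq2 (0.332).

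Near the annotated 3' end of the gene, position 7115190 had 36.2% and 52.2% after ascorbic acid, against 63.8% and 69.3% in control. Its depth was 47 to 75 reads per library. The ascorbic acid libraries differed widely from each other at this site, and its edgeR adjusted p of 0.00397 became 0.130 without control library 2, 0.174 without ascorbic acid library 1, 0.164 by DESeq2 and 0.0769 by limma. Position 7116286 had 66.9% and 75.2% after ascorbic acid, against 92.2% and 82.7% in control (edgeR adjusted p = 0.00326, but 0.0737 without control library 1, 0.145 without ascorbic acid library 1, 0.0779 by DESeq2 and 0.0976 by limma). Its neighbour 8 nt away, position 7116278, is the deepest tested INSR site and had 71.4% and 66.4% after ascorbic acid, against 69.2% and 64.1% in control, so the groups overlapped (edgeR adjusted p = 0.681). The INSR site of highest mean level, position 7116904, had 41 to 60 reads per library. It ranged from 76.5% to 96.2% after ascorbic acid, against 88.3% to 95.1% in control, with no call (edgeR adjusted p = 0.538).

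The INSR sites fall into groups far apart along the gene. The 5 tested sites between 26591 and 27048 nt from the gene start held 36.3% and 36.7% A after ascorbic acid, against 52.0% and 52.2% in control. The 9 tested sites near the 3' end held 54.7% and 58.5% after ascorbic acid, against 62.8% and 64.4% in control. A single tested site between them, 109954 nt from the start, held 15.3% and 13.1% after ascorbic acid, against 26.0% and 28.6% in control. The change in log2 odds of the first group minus that of the last was -0.50. With 2 libraries a group an exact permutation test cannot go below p = 0.333, and the two-sided p here was 0.333, also after adjustment over the 5 such comparisons made.

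IGF1R, the receptor for IGF-1 and IGF-2, spans 315992 nt on the plus strand of chromosome 15 (98648539 to 98964530). Over its 41 tested sites the level was 41.1% and 41.5% in the ascorbic acid libraries, against 47.9% and 49.3% in the controls, from 3034 to 3468 reads per library. The groups did not overlap, and the log2 odds fell by 0.43 ± 0.08 (SE, edgeR adjusted p = 0.000102). This change was close to the median of all genes, -0.39.

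The 2 IGF1R sites with the largest falls in percentage points lay in 1 stretch upstream of the sites near the 3' end. At position 98707934, 59395 nt from the gene start, the level was 43.0% and 40.0% after ascorbic acid, against 89.0% and 84.4% in control, from 86 to 100 reads (log2 odds -3.18 ± 0.33, SE, edgeR adjusted p = 2.19e-10). At position 98707847 it was 18.1% and 16.0% after ascorbic acid, against 47.3% and 39.4% in control (edgeR adjusted p = 5.59e-05). Both sites passed under each of the 11 other settings run on them. The 4 tested sites of this stretch, of which 3 fell, together held 24.1% and 20.6% A after ascorbic acid, against 41.2% and 43.9% in control. The 34 tested sites in the last 7235 nt before the annotated 3' end, of which 4 fell, held 44.7% and 46.4% after ascorbic acid, against 50.3% and 50.7% in control. Over all tested sites, 25.7% fell, a larger share than in this last group. The change in log2 odds of the upstream stretch minus that of the last was -1.08. The exact two-sided p was again the smallest possible, 0.333. This stretch holds the 2 largest falls and is not the first group of the gene, so the comparison is no test of position. The log2 odds changed by -0.45 at the 2 sites 573 to 593 nt from the gene start and by -1.37 in this stretch. The change was -1.65 at the single site 273769 nt from the start and -0.29 in the last group.

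Other IGF1R sites were shallower or changed less. Position 98922308 is the only tested site in the middle of the gene and had 27.8% and 15% after ascorbic acid, against 39.0% and 51.2% in control, from 36 to 43 reads. Its edgeR adjusted p of 0.0104 became 0.165 without control library 2, 0.242 without ascorbic acid library 2, 0.216 by DESeq2 and 0.0754 by limma. Position 98957295 had 39.7% and 43.5% after ascorbic acid, against 66.1% and 62.0% in control (edgeR adjusted p = 0.00475, but 0.0667 without control library 1, 0.0599 without ascorbic acid library 1 and 0.1698 by DESeq2). The deepest tested site, position 98958043, had 82.6% and 84.5% after ascorbic acid, against 94.6% and 94.1% in control, and the fall passed under all 11 other settings (edgeR adjusted p = 0.000158). The site of highest mean level, position 98961735, had 44 to 61 reads per library. It held 91.8% and 86.5% after ascorbic acid, against 95.5% and 91.8% in control, with no call (edgeR adjusted p = 0.483).

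**Figure D2:**
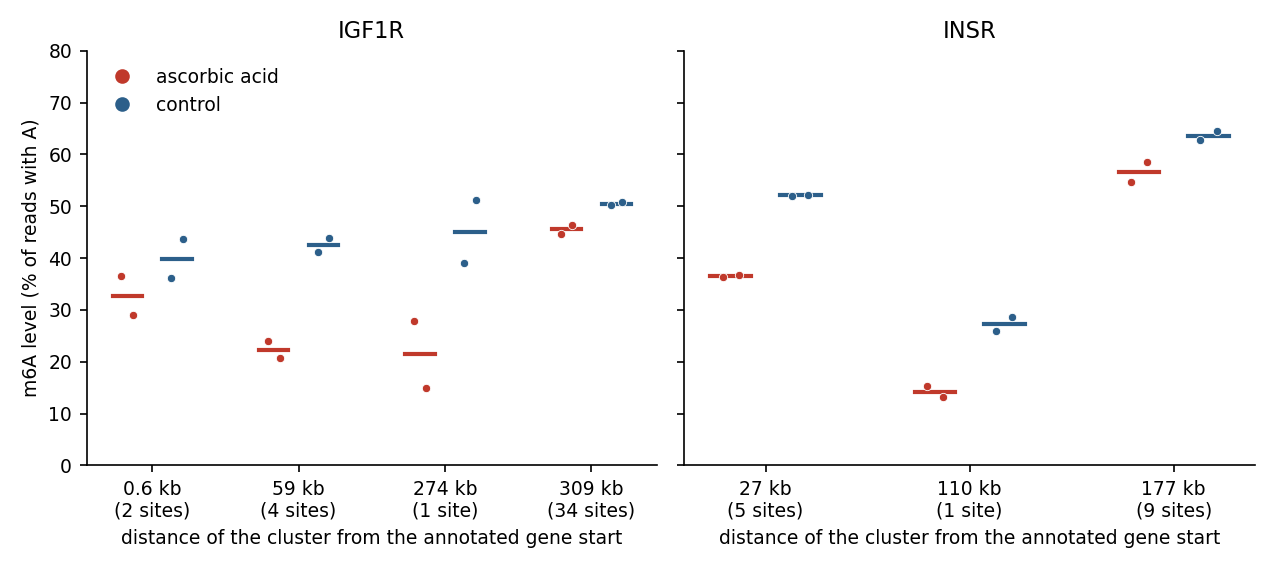
m6A level in percent (y axis) pooled over the tested sites of each group of sites along IGF1R (left panel) and INSR (right panel), ordered by distance from the annotated gene start (x axis); points are libraries, with ascorbic acid in red to the left of control in blue, and bars are means of 2 libraries. The gap between red and blue is wider in the IGF1R group at 59 kb (22.3% after ascorbic acid against 42.6% in control on average) than in its last group (45.6% after ascorbic acid against 50.5% in control), and the first IGF1R group, at under 1 kb, is the 1 group in which red and blue points overlap.

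IGF1R and INSR encode closely related receptors, and their changes in log2 odds were -0.43 and -0.57. The difference between IGF1R and INSR in log2 odds was -0.36 and -0.46 in the ascorbic acid libraries, against -0.51 and -0.57 in the controls. The change of that difference was 0.14, with an exact two-sided p of 0.333, the smallest this design allows.

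IRS4, a docking protein of the IRS family, is encoded on the minus strand of chromosome X (108719946 to 108736563) and carried more reads than any other of these transcripts. Over its 38 tested sites the level was 42.8% and 41.9% in the ascorbic acid libraries, against 52.5% and 53.8% in the controls, from 43797 to 54755 reads per library. The groups did not overlap, and the log2 odds fell by 0.63 ± 0.06 (SE, edgeR adjusted p = 3.22e-08). Of the 38 sites, 37 were lower in mean level after ascorbic acid by any amount, against 82.9% of all tested sites, and 31 had both ascorbic acid libraries below both controls, against 55.4% of all tested sites.

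The 6 IRS4 sites that fell by over 15 percentage points all lie within 766 nt, at 108732806 to 108733571, which is 2992 to 3757 nt from the annotated gene start. The limit of 15 points and the stretch were chosen after the values were seen, so no test of the grouping is given. At position 108732806 the level was 24.2% and 25.2% after ascorbic acid, against 52.0% and 49.9% in control. At position 108732878 it was 33.0% and 32.9% after ascorbic acid, against 59.5% and 58.7% in control. At position 108733525 it was 69.1% and 66.6% after ascorbic acid, against 93.3% and 94.0% in control. At each of these sites the libraries of a group lay close together and the groups far apart.

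The deepest site, position 108733373, had 4334 to 5126 reads per library and held 72.6% and 72.4% A after ascorbic acid, against 95.0% and 95.8% in control (log2 odds -2.98 ± 0.10, SE, edgeR adjusted p = 1.42e-25). The remaining sites of the 6 were position 108733571, at 71.2% and 72.4% after ascorbic acid, against 94.0% and 92.8% in control, and position 108733013, at 79.0% and 78.0% after ascorbic acid, against 94.8% and 94.8% in control. All 6 passed under each of the 11 other settings, with adjusted p values up to 0.0138. The other 7 tested sites of the stretch changed by at most -7.16 points, although 4 of them also fell. One such site is position 108732883, only 5 nt from position 108732878. It changed by -1.03 points, with no call, where its neighbour changed by -26.2.

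Outside this stretch 13 of 25 tested IRS4 sites fell, by up to 14.3 points, where 25.7% of all tested sites fell. The median lowest depth was 723 reads over the 38 IRS4 sites, against 86 over all tested sites. The site of highest mean level, position 108734585, held 92.8% and 95.1% A after ascorbic acid, against 98.4% and 99.2% in control (edgeR adjusted p = 0.00127, but 0.0756 by limma, 0.0774 without control library 2, and 0.0843 with unconverted reads subtracted). The 5 tested sites near the 3' end held 38.0% and 39.1% after ascorbic acid, against 47.6% and 46.6% in control, and the 33 upstream sites held 43.2% and 42.1% after ascorbic acid, against 53.0% and 54.3% in control. The changes of these groups of sites differed by -0.13 in log2 odds, upstream minus last, with an exact two-sided p of 0.333.

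**Figure D3:**
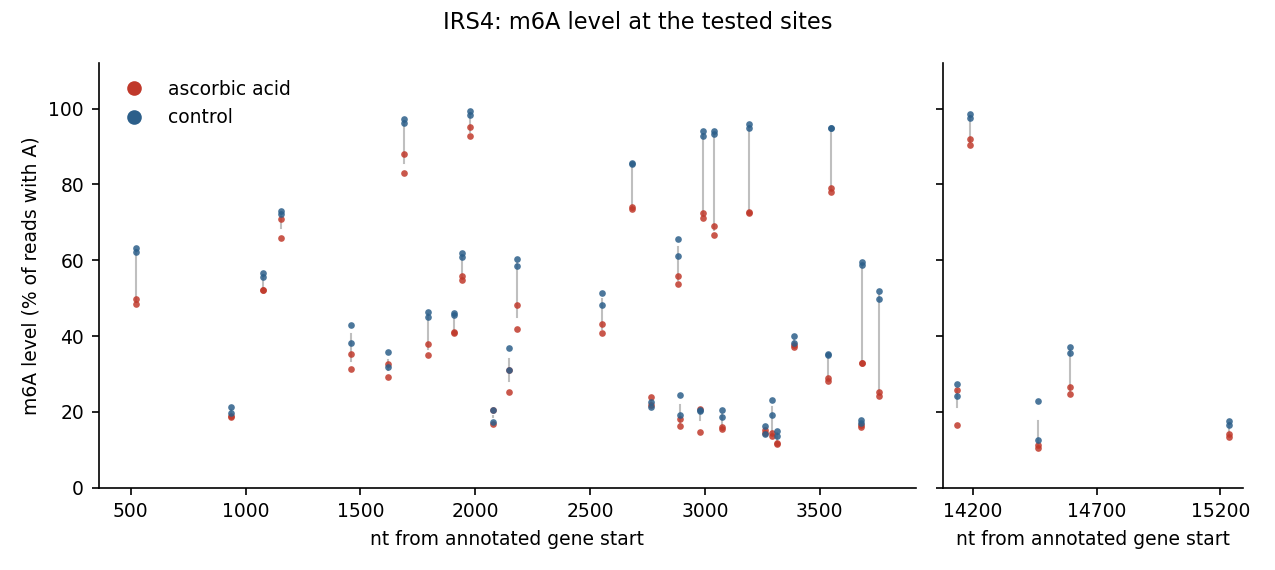
m6A level in percent (y axis) at each of the 38 tested IRS4 sites by distance from the annotated gene start in nt (x axis, with the 5 sites near the 3' end in the right panel); points are libraries, ascorbic acid in red and control in blue, and grey lines join the group means. The 6 longest grey lines stand between 2992 and 3757 nt, beside sites of low level whose red and blue points lie closer together.

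IRS1 and IRS2, the widely expressed docking proteins of the family, had too few reads for the test. In IRS1 (minus strand of chromosome 2, 226731312 to 226799820), position 226797525 was listed in 3 libraries, at 34.1% in ascorbic acid library 2, against 22.0% and 27.3% in the controls. Its 95% exact binomial intervals were 20.5 to 49.9% for ascorbic acid library 2, against 10.6 to 37.6% and 13.3 to 45.5% for the controls, and they overlapped. These intervals cover counting error only, since reads made by PCR are not independent molecules. Position 226796032 was listed at 26.3% of 19 reads in each ascorbic acid library and in no control. Positions 226795544 and 226798014 were listed only in ascorbic acid library 2, at 86.7% and 60% of 15 reads each.

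In IRS2 (minus strand of chromosome 13, 109752695 to 109786583), 2 of 19 sites were in all 4 lists, each with under 20 reads in at least 1 library. Position 109783046 held 28.6% and 23.3% A after ascorbic acid, against 38.9% and 43.8% in control, from 18 to 32 reads. Position 109755730 held 26.3% and 36.8% after ascorbic acid, against 37.5% and 31.6% in control, from 16 to 19 reads, so its groups overlapped. With the minimum lowered to 15 reads, the sites had edgeR adjusted p values of 0.198 and 0.899, and the 2 sites together changed by -0.69 ± 0.43 in log2 odds (SE, adjusted p = 0.181). At this depth no difference was detectable in IRS2, and none could be tested in IRS1.

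AKT1, a serine and threonine kinase downstream of PI3K, showed the largest fall of these transcripts. The gene lies on the minus strand of chromosome 14 (104769349 to 104795748). Over its 4 tested sites the level was 24.3% and 25.0% in the ascorbic acid libraries, against 59.7% and 61.1% in the controls, from 1171 to 1759 reads per library. The log2 odds fell by 2.22 ± 0.10 (SE, edgeR adjusted p = 3.84e-13), which ranks 118 among 10782 genes.

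3 of the 4 AKT1 sites fell, and each passed under all 11 other settings. Position 104770055, the deepest and the site of highest mean level, lies 706 nt from the annotated 3' end and held 30.2% and 29.3% A after ascorbic acid, against 75.8% and 77.9% in control, from 530 to 813 reads (log2 odds -2.98 ± 0.14, SE, edgeR adjusted p = 2.7e-21). Position 104770203 held 18.9% and 19.9% after ascorbic acid, against 54.7% and 53.5% in control (edgeR adjusted p = 4.53e-15). Position 104773058, 3709 nt from the 3' end, held 16.0% and 19.2% after ascorbic acid, against 36.9% and 40.1% in control (edgeR adjusted p = 6.55e-09). At each of these sites the gap between the groups was several times the gap between libraries of a group.

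The remaining tested AKT1 site, position 104793553, lies 2195 nt from the gene start and held 50.0% and 51.0% after ascorbic acid, against 52.0% and 46.2% in control. The groups overlapped there (edgeR adjusted p = 0.890), but with 25 to 51 reads per library only a large change could have been seen. A further 4 AKT1 sites were in all 4 lists but had under 20 reads in at least 1 library. Of these, position 104771465 held 48.3% and 58.6% A after ascorbic acid, against 73.3% and 65.0% in control, and position 104771915 held 17.4% and 21.2% after ascorbic acid, against 38.9% and 32.4% in control, while the groups overlapped at positions 104771443 and 104771909. With the minimum lowered to 15 reads, 117 sites of these transcripts were tested and 46 fell by edgeR. All 46 were among the 47 found at 20 reads, so none of these 4 AKT1 sites passed the threshold.

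AKT2, the paralogue known for its part in insulin-stimulated glucose uptake, lies on the minus strand of chromosome 19 (40230317 to 40285345). Over its 11 tested sites, which all lie 2475 to 3347 nt from the annotated 3' end, the level was 25.9% and 27.2% after ascorbic acid, against 32.6% and 33.2% in control, from 7946 to 10140 reads per library. The log2 odds fell by 0.44 ± 0.07 (SE, edgeR adjusted p = 1.88e-05). All 11 sites had both ascorbic acid libraries below both controls, against 55.4% of all tested sites, and 7 of them fell, against 25.7% of all tested sites.

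The larger AKT2 changes were at sites of higher level. Position 40232977 held 41.9% and 49.3% A after ascorbic acid, against 77.2% and 76.1% in control (log2 odds -1.95 ± 0.17, SE, edgeR adjusted p = 1.34e-12). Position 40232958, 19 nt away, held 52.0% and 53.1% after ascorbic acid, against 71.7% and 68.8% in control (edgeR adjusted p = 5.5e-05). Position 40233161, the site of highest mean level, held 53.9% and 57.2% after ascorbic acid, against 68.2% and 70.1% in control (edgeR adjusted p = 4.01e-07). Position 40233664 held 35.6% and 34.6% after ascorbic acid, against 43.5% and 48.3% in control (edgeR adjusted p = 2.49e-05). The last pair of sites missed the threshold by limma on the log odds, at adjusted p values of 0.0726 and 0.131. The deepest tested site, position 40233081, held 15.6% and 17.5% after ascorbic acid, against 18.1% and 18.9% in control, with no call (edgeR adjusted p = 0.255).

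**Figure D4:**
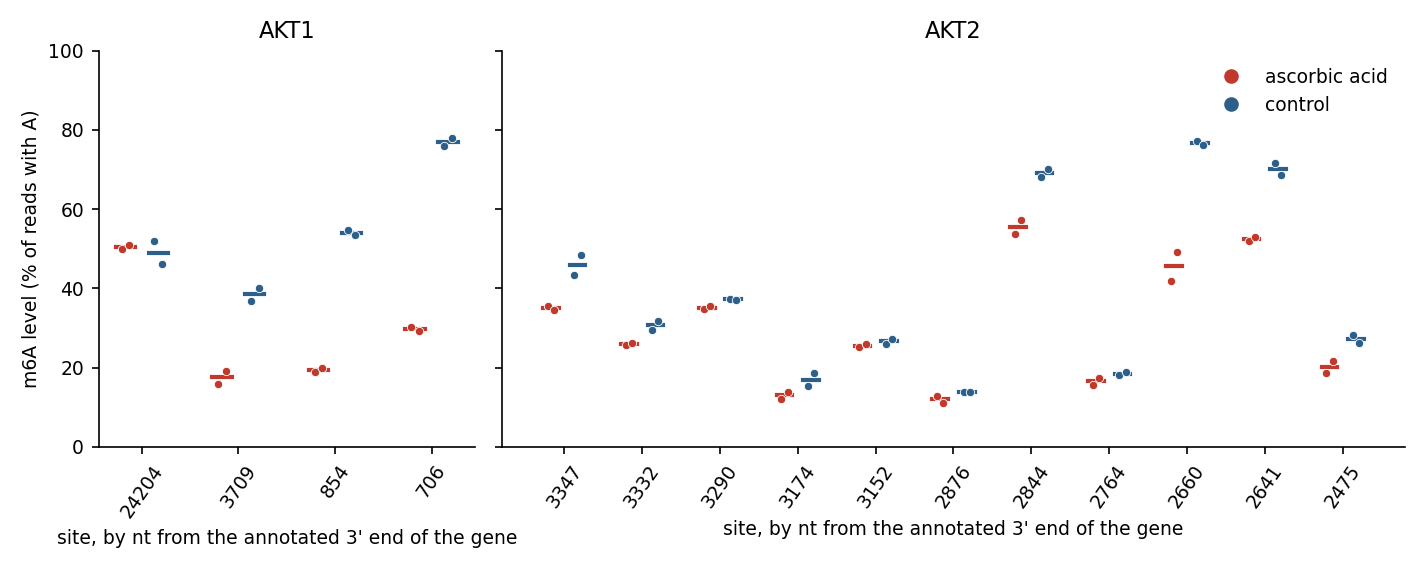
m6A level in percent (y axis) at each tested site of AKT1 (left panel, 4 sites) and AKT2 (right panel, 11 sites), ordered along the transcript by nt from the annotated 3' end (x axis, evenly spaced); points are libraries, ascorbic acid in red to the left of control in blue, and bars are means of 2 libraries. The 3 AKT1 sites nearest the 3' end show gaps of 20.9 to 47.2 points, while in AKT2 the gap is widest at 1 site (45.6% after ascorbic acid against 76.7% in control on average) and small at the sites under 20%.

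AKT1 and AKT2 were also compared directly. The log2 odds of A in AKT1 minus that in AKT2 was -0.12 and -0.17 in the ascorbic acid libraries, against 1.61 and 1.66 in the controls. The change of -1.78 was large beside the spread within groups (SD 0.03), but the exact two-sided p could not go below 0.333 and was 0.333.

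Sites listed in only some libraries were about equally many in both groups. Of the 258 sites, 42 were listed only in ascorbic acid libraries and 41 only in controls. Of these, 4 were in both ascorbic acid lists and no control list, and 8 were in both control lists and no ascorbic acid list. These counts were not compared with those over all listed sites, so a difference from other genes was not tested. Among the 8, the IRS4 site at position 108722300 is absent from both ascorbic acid lists and had 13.9% of 2539 and 14.4% of 2696 reads in control. The AKT1 site at position 104770151, 802 nt from the 3' end, is likewise absent after ascorbic acid and had 13.9% of 339 and 15.9% of 364 reads in control. Among the 4, the IGF1R site at position 98962532 had 43.3% of 30 and 30.0% of 40 reads after ascorbic acid and is absent from both control lists. Near the unlisted IRS4 site, position 108722374 had 1037 and 1332 reads in the ascorbic acid libraries. Near the unlisted AKT1 site, position 104770203 had 419 and 467. Whether an unlisted site itself had a lower level or too few reads was not tested.

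None of the 7 transcripts changed in gene coverage past the threshold. Gene coverage is the authors' value per gene, scaled here by the median ratio between libraries, so it measures abundance relative to other listed genes. In such bulk libraries fewer cells carrying a transcript and less RNA per cell cannot be told apart. By limma over 11848 genes, 0 of the 7 rose or fell, where 0.253% of all genes rose and 0.0422% fell, and 2 of the 7 had an unadjusted p under 0.05, against 14.4% of all genes.

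Scaled coverage of AKT1 was 346 and 342 in the ascorbic acid libraries, against 290.1 and 312 in the controls (log2 fold change 0.19 ± 0.06, SE, limma adjusted p = 0.243, unadjusted 0.0171). For IRS4 it was 1080.3 and 1150.3 after ascorbic acid, against 1005 and 1001 in control (0.15 ± 0.06, adjusted p = 0.341, unadjusted 0.0476). These are the transcripts with an unadjusted p under 0.05, and both ascorbic acid libraries lay above both controls, as they did in 23.2% of all genes. AKT2 averaged 259 ± 3.91 after ascorbic acid and 266 ± 10.8 in control (SD, n = 2 each), and IGF1R averaged 58.3 ± 0.03 after ascorbic acid and 60.9 ± 4.51 in control. INSR averaged 33.5 ± 1.198 after ascorbic acid and 35.8 ± 2.67 in control. The groups of these 3 transcripts overlapped, with log2 fold changes of -0.04, -0.06 and -0.10. IRS1 averaged 22.0 ± 1.29 after ascorbic acid and 23.8 ± 0.23 in control, and IRS2 20.2 ± 0.75 after ascorbic acid and 21.8 ± 0.70 in control, with log2 fold changes of -0.12 and -0.11 (adjusted p = 0.526 and 0.537). In IRS1 and IRS2 both ascorbic acid libraries lay below both controls, as they did in 23.6% of all genes.

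By this coverage, 96.2% of genes lay below IRS4, 83.8% below AKT1 and 79.6% below AKT2. IGF1R stood above 34.6%, INSR above 15.5%, IRS1 above 3.27% and IRS2 above 1.53% of genes. The lowest gene coverage in any list was 15, so genes below that level are not in the ranking. Genes with no called site have no entry and are missing from it at any coverage. The ranking covers 11848 of the 15209 gene names. Since no source defines the unit or says whether it is per length, the order between these transcripts is one of coverage, not of molecules.

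**Figure D5:**
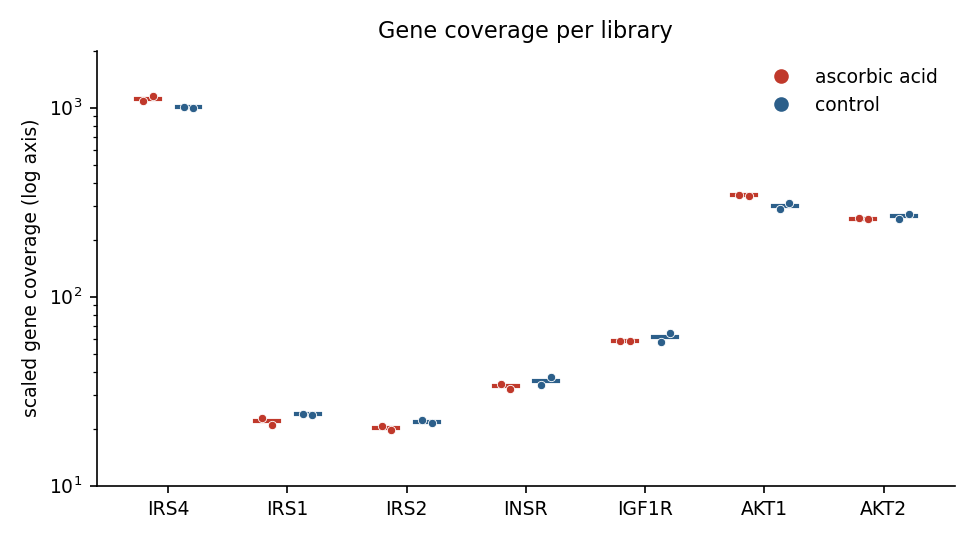
Scaled gene coverage (y axis, log scale) of the 7 transcripts (x axis); points are libraries, ascorbic acid in red to the left of control in blue, and bars are means of 2 libraries. IRS4 stands highest, at 1115 after ascorbic acid against 1003 in control on average, IRS2 lowest, at 20.2 after ascorbic acid against 21.8 in control, and in every transcript the groups lie close to each other on this scale.

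Most other genes of the pathway that could be tested also fell, with a median close to that of all genes. Of 81 genes in 7 lists of ligands, receptors, adaptors, PI3K subunits, phosphatases, AKT regulators, mTORC1 components and AKT substrates, 59 had a tested site. Of the 59, 44 fell (74.6%), 0 rose and 15 did not pass the threshold, by edgeR on reads summed per gene, against 56.7% of all genes that fell. At an unadjusted p under 0.05 also 0 of the 59 were higher, where 0.454% of all genes were. Their median change in log2 odds was -0.38, against -0.39 over all genes. Neither depth nor the number of sites per gene was compared between these lists and all genes. The count of falls was 28 both by DESeq2 and by limma. Over all 10782 genes the count was also lower, at 4194 by DESeq2 and 4407 by limma in place of 6114.

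Of the ligands and receptors only IGF2R, which carries IGF-2 to lysosomes, could be tested. Its level was 40.7% and 38.4% after ascorbic acid, against 44.0% and 46.1% in control (edgeR adjusted p = 0.00514, but 0.131 without ascorbic acid library 2 and 0.0651 by limma). Among adaptors and feedback proteins 9 of 15 fell (60.0%), near the 56.7% of all genes, and the median change in log2 odds was -0.33, against -0.39. GRB10, an adaptor that inhibits the receptors, had 45.9% and 44.6% after ascorbic acid, against 60.9% and 61.5% in control (adjusted p = 4.86e-08). CBL, a ubiquitin ligase, had 30.8% and 27.3% after ascorbic acid, against 42.7% and 46.2% in control (adjusted p = 1.21e-05). The adaptor CRKL had 41.6% and 41.5% after ascorbic acid, against 46.3% and 48.3% in control (adjusted p = 0.000212).

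Of the PI3K subunits, 5 of 7 tested fell (71.4%), against 56.7% of all genes. Their median change in log2 odds was -0.55, against -0.39 over all genes. PIK3R4, the regulatory subunit of the class III enzyme, had 35.8% and 36.4% after ascorbic acid, against 56.1% and 56.1% in control (adjusted p = 4.39e-10). PIK3C2A, a class II catalytic subunit, had 29.4% and 31.5% after ascorbic acid, against 53.3% and 56.3% in control (adjusted p = 1.81e-08). PIK3R2, a regulatory subunit of class I, the class that phosphorylated IRS proteins recruit, had 24.1% and 24.8% after ascorbic acid, against 30.2% and 34.4% in control (adjusted p = 3.56e-05). Of the phosphatases that oppose the pathway, 7 of 8 fell (87.5%), against 56.7% of all genes, but the median change was -0.37, against -0.39. The phosphoinositide phosphatase INPPL1 had 26.2% and 27.5% after ascorbic acid, against 45.5% and 45.0% in control (adjusted p = 4.93e-11), and INPP5E had 30.7% and 28.1% after ascorbic acid, against 37.6% and 42.9% in control (adjusted p = 1.1e-05). PPP2R5C, a regulatory subunit of protein phosphatase 2A, had 27.8% and 27.3% after ascorbic acid, against 32.2% and 34.0% in control (adjusted p = 0.000643).

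Among the regulators of AKT activation, 5 of 6 fell (83.3%), against 56.7% of all genes, with a median change in log2 odds of -0.64, against -0.39. PRR5, a subunit of mTORC2, had 28.5% and 30.1% after ascorbic acid, against 44.3% and 44.4% in control (adjusted p = 1.05e-08). MAPKAP1, also of mTORC2, had 20.7% and 20.8% after ascorbic acid, against 35.8% and 33.3% in control (adjusted p = 1.68e-06). PDPK1, the kinase that phosphorylates AKT, had 35.1% and 35.7% after ascorbic acid, against 38.9% and 42.4% in control (edgeR adjusted p = 0.00321, but 0.0747 by limma).

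Of the mTORC1 branch 7 of 10 fell (70.0%), against 56.7% of all genes, but the median change in log2 odds was -0.37, against -0.39. RPTOR, the scaffold of mTORC1, had 39.4% and 41.3% after ascorbic acid, against 52.2% and 54.9% in control (adjusted p = 1.88e-07). The kinase MTOR had 26.1% and 23.8% after ascorbic acid, against 39.7% and 35.1% in control (adjusted p = 3.96e-05), and TSC1, a subunit of the complex that restrains mTORC1, had 41.1% and 43.2% after ascorbic acid, against 51.3% and 53.4% in control (adjusted p = 0.000119). Of the AKT substrates 10 of 12 fell (83.3%), against 56.7% of all genes, but the median change was -0.40, close to the -0.39 of all genes. GSK3B and GSK3A encode kinases that inhibit glycogen synthase. GSK3B had 30.3% and 29.8% after ascorbic acid, against 43.4% and 47.2% in control (adjusted p = 1.19e-06), and GSK3A had 49.7% and 50.2% after ascorbic acid, against 66.8% and 69.9% in control (adjusted p = 8.44e-05). TBC1D1, which acts on vesicles that carry glucose transporters, had 70.6% and 66.1% after ascorbic acid, against 86.5% and 91.1% in control, over 2 sites (adjusted p = 4.65e-05). With a minimum of 50 reads TBC1D1 missed the threshold (adjusted p = 0.0577), and the log2 odds of MTOR were -0.47 in place of -0.85.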

How the data were processed

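The 4 HEK293T libraries were made by GLORI from 300 ng of mRNA each, deaminated for 8 h at 16 °C, per the labels' protocols. The submitters' processing notes list STAR, Trimmomatic 0.39 and the genome builds GRCh38 and hg38; neither they nor the labels name the site caller. The authors deposited 1 site list per library. The read counts for A plus G and for A are whole numbers, deposited unscaled. The m6A level is a fraction deposited as A over A plus G, which recomputation matched within 1e-05. A further deposited fraction gives the conversion rate of each gene. The authors also deposited a coverage signal for each gene, whose unit is not stated. P-values deposited with each site served no test here.

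Sites in all 4 lists with at least 20 reads each were tested with edgeR 4.0.16 (quasi-likelihood, terms for the libraries and for treatment on the odds of A), per site and summed per gene. Scaled coverage was tested on the log2 scale with limma 3.58.1 (trended eBayes); the deposited coverage itself is not log2. DESeq2 1.42.0 was an alternative; R was 4.3.3. Adjusted p-values are Benjamini-Hochberg values over all features, two-sided, with a threshold of 0.05. The depth is given beside the level for part of the named sites, and exact binomial intervals are at 95%.

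The transcripts, lists and tests were chosen with earlier results of these data known. The sites named are each transcript's up to 4 largest falls past the threshold, every rise, the site of highest mean level and the deepest, and all sites of a transcript with 4 or fewer; of each pathway list, any rise and up to 3 genes of smallest p. The other sites given by position were named after their values were seen. Alternatives were the read minimum, the tool, nearby sites, unconverted reads, a replicate term and each library left out. 1 gene of the pathway lists is not reported here. No site sequence was printed, because no genome was used here.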

Additional observations from a re-analysis of the deposited data

How the results depend on the processing

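The direction of the gene-level fall and its side of the threshold held for IRS4, INSR, IGF1R, AKT1 and AKT2 under read minimums of 15 and 50, DESeq2, limma, omission of sites 6 nt from another, subtraction of unconverted reads, a replicate block and each library left out. With all sites weighted equally the changes in log2 odds were -0.84 in IRS4, -0.73 in INSR, -0.57 in IGF1R, -1.67 in AKT1 and -0.59 in AKT2. The count of sites that fell, 47, was 26 by DESeq2, 21 by limma and 30 to 37 with a library left out, and the count of pathway genes that fell, 44, was 28 by DESeq2, 28 by limma and 28 to 44 with a library left out. The labels do not say whether replicate numbers pair the libraries. Deviations of same-numbered libraries correlated at -0.01 over sites and -0.16 over gene coverage. With 2 libraries a group these values cannot settle whether the numbers mark pairs. With the replicate block 45 of the 47 sites fell. Over all genes, 30 rose and 5 fell in coverage, 70 and 22 with the replicate block, and 85 and 22 with crossed numbers, a setting chosen after seeing the data; 0 of the 7 transcripts passed in any. Coverage scaled to equal sums gave 66 rises, and leaving out control 1 gave 182 rises and 84 falls. With a library left out, the log2 fold change in coverage ranged between -0.14 and 0.014 for IGF1R and between -0.080 and 0.0030 for AKT2, turning sign without control 2. Without that library the log2 odds also turned sign at the uncalled sites INSR 7116278 (-0.017; range over libraries left out -0.017 to 0.37) and AKT1 104793553 (-0.083; -0.083 to 0.25), as did INSR 7116904 without ascorbic acid 1 (1.26; -1.63 to 1.26). Over all sites, 20141 fell, 9991 by DESeq2, 10187 by limma and 12407 without ascorbic acid 2. IRS1 had no value under any setting and IRS2 only at the minimum of 15 reads. INSR and IGF1R sites, with a median lowest depth of 49 and 61 reads, allow only large changes to pass.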
